A study of Mus musculus with 6 samples.

Results

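The genes of the phagocyte NADPH oxidase were examined in mouse spinal cord with and without a crush injury. They were 7 of the 36629 genes listed for each library and were taken by name: the subunits Cybb, Cyba, Ncf1 and Ncf4, the small GTPase Rac2, the proton channel Hvcn1, and Nox4, a related oxidase. All came from C57/BL6 mice aged 3 to 5 weeks and weighing 18 to 20 g. Sham mice (3 libraries, labelled untreated) had the muscle and fat over vertebrae T9 and T10 cleared and underwent a laminectomy, which opens the bone over the cord. Mice with spinal cord injury (SCI, 3 libraries) had the same operation, and a vascular clip of 60 g force then pressed on the exposed cord for 5 seconds. Cord from segments T8 to T12 was taken on day 3 after surgery in both groups. The study set out to find how the transcriptome of injured cord differs from that of uninjured cord. The labels do not say whether a library was made from 1 animal or several, and p-values therefore measure the spread between these libraries.

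The phagocyte oxidase moves electrons from NADPH across a membrane to oxygen and so makes superoxide, which microglia, macrophages and neutrophils release into a phagosome or outside the cell. Its membrane core is a pair of proteins, gp91phox (Cybb, also called NOX2), which carries the electrons, and p22phox (Cyba), which stabilises it. In resting cells regulators such as p47phox (Ncf1) and p40phox (Ncf4) wait in the cytosol and join the core, together with a Rac GTPase, only on stimulation. The voltage-gated proton channel (Hvcn1) lets protons follow the electrons and keeps the membrane potential from stopping the enzyme. Nox4 also binds p22phox but needs no cytosolic regulators, makes mostly hydrogen peroxide, and is known from endothelium, smooth muscle, fibroblasts and kidney.

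Values are FPKM, fragments scaled by gene length and library size, as the authors gave them, so that levels of different genes can be set side by side. The number of reads behind them is unknown. The libraries had 16774 to 17202 genes at 1 FPKM or more, and 0.11% to 0.13% of the FPKM of the sham libraries came from haemoglobin genes, against 0.66%, 6.16% and 0.21% in SCI replicates 1, 2 and 3. The tissue carried the markers of cord: the summed FPKM of 6 neuronal, 5 astrocyte and 5 oligodendrocyte genes was at least 666, 1070 and 4075 in every library. Of these the neuronal genes were lower in 6 of 6 cases, the astrocyte genes higher in 3 and lower in 2, and the oligodendrocyte genes lower in 4. The sum of 5 sensory ganglion genes, 571 to 1527 in sham cord, was 112 to 263 after injury, and that of 5 red blood cell genes was at most 929 and then between 1528 and 45063, the last in SCI replicate 2. SCI replicate 3 stood apart in genes of sensory ganglion cells: Avil, Scn10a and Mrgprd were at 17.3, 6.6 and 1.96 FPKM there, and Avil was at most 0.50 and the others at 0 in each of the other libraries. The changes below are differences of log2(FPKM + 1) between the groups, positive where SCI was higher, from limma, with p-values adjusted by the Benjamini-Hochberg method over the 17435 genes that reached 1 FPKM in 3 or more libraries. An adjusted p under 0.05 is called past the threshold. This scale understates the change of low genes, and the ratio of the group means in FPKM is therefore given as well.

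All 7 genes are protein-coding, and their coordinates in the files match GENCODE M21 on GRCm38. Cybb (ENSMUSG00000015340) lies on chromosome X from 9435252 to 9487771 and Cyba (ENSMUSG00000006519) on chromosome 8 from 122424776 to 122432930, both on the minus strand. Ncf1 (ENSMUSG00000015950) lies on the minus strand of chromosome 5 from 134220053 to 134229625, and Hvcn1 (ENSMUSG00000064267) on the plus strand of that chromosome, at 122206804 to 122242297. Ncf4 (ENSMUSG00000071715, plus strand, 78244801 to 78262580) and Rac2 (ENSMUSG00000033220, minus strand, 78559167 to 78572783) share chromosome 15, with 296586 bases between them. Nox4 (ENSMUSG00000030562) spans 152615 bases of chromosome 7 (plus strand, 87246096 to 87398710). The files give 1 value per gene and do not separate its transcripts.

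The promoters of the 3 oxidase subunits held in the RefSeq table (GRCm38.p6, 250 bases before to 50 after an annotated start) are shown because the log2 changes of their genes ran from 1.51 to 3.36, and because PU.1 (Spi1), the transcription factor of the myeloid lineage, is known to bind sequences with the core GAGGAA. The table also held Nox4. Each is written 5′ to 3′ on the strand of the gene, with matches to GAGGAA or its reverse complement TTCCTC in capitals.
Cybb, chrX:9469275-9469574, minus strand: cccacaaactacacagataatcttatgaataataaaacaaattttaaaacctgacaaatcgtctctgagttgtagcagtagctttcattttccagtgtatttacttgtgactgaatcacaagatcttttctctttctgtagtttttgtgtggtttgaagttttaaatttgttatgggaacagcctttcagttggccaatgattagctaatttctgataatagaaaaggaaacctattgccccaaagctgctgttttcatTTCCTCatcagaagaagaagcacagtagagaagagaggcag
Cyba, chr8:122432891-122433190, minus strand: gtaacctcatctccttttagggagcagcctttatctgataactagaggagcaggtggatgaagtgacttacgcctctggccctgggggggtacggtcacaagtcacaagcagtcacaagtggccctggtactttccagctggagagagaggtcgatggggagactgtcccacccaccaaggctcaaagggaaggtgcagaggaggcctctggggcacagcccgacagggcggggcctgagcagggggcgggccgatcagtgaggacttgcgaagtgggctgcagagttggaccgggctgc
Ncf1, chr5:134229576-134229875, minus strand: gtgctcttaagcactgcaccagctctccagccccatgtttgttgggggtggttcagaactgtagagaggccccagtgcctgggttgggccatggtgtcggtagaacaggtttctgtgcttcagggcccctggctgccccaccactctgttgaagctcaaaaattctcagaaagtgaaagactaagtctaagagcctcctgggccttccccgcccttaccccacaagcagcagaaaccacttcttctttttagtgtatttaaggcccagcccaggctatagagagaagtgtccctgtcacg
Cybb had 1 match, on the opposite strand, which began 9 bases after the first transcribed base. Cyba, Ncf1 and Nox4 had 0 matches in these windows, and 28.3% of the 32851 promoters of the table held at least 1. Base composition set the windows apart: G and C made up 35.3% of the Cybb window, 60.7% of that of Cyba, 54.0% of that of Ncf1 and 68.3% of that of Nox4, where the median over all promoters was 52.7%. CpG pairs numbered 1, 9, 3 and 24 in the same order, and the median promoter had 7. A match is a description of letters and shows no binding, and the Cybb and Nox4 windows lie inside the gene models of the files, whose starts are farther upstream.

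Both genes of the membrane core rose in the injured cord, Cybb 3.71-fold and Cyba 11.1-fold. These are whole pieces of cord, in which more cells of a type and more RNA per cell cannot be told apart. Cybb was at 2.52, 1.91 and 2.44 FPKM in sham replicates 1, 2 and 3 and at 6.08, 10.41 and 9.03 in SCI replicates 1, 2 and 3. Cyba, its stabilising partner, was at 12.03, 8.25 and 11.54 FPKM in the sham libraries and at 103.97, 142.38 and 107.07 in the SCI libraries. For both genes every SCI library was above every sham library, and the second SCI library was the highest. The mean of Cybb went from 2.29 ± 0.332 to 8.51 ± 2.21 FPKM (SD, n = 3 per group), with a log2 change of 1.51 (SE 0.19, limma adjusted p = 0.00063). The mean of Cyba went from 10.6 ± 2.06 to 118 ± 21.3 FPKM (SD, n = 3 per group), with a log2 change of 3.36 (SE 0.17, limma adjusted p = 1.6e-05).

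The cytosolic regulators Ncf1 and Ncf4 rose as well, and the difference between them was not tested. Ncf1, the organiser p47phox whose phosphorylation starts assembly, was at 4.60, 3.83 and 4.16 FPKM in sham cord, against 39.97, 56.66 and 42.61 in SCI libraries. Ncf4, the p40phox that binds the phosphoinositide of phagosomes, was at 1.40, 0.83 and 0.64 FPKM in sham cord, against 12.86, 19.20 and 10.90 in SCI libraries. In both genes the groups did not overlap, and SCI replicate 2 was again the highest. Ncf1 rose 11.1-fold, from 4.20 ± 0.386 to 46.4 ± 8.97 FPKM (log2 change 3.18, SE 0.14, limma adjusted p = 1.2e-05). Ncf4 rose 15.0-fold, from 0.957 ± 0.396 to 14.3 ± 4.34 FPKM (log2 change 2.95, SE 0.23, limma adjusted p = 7.9e-05). Ncf1 shares 4303 bases with Gtf2ird2 on the opposite strand. Gtf2ird2 was lower in every SCI library, at 5.38 to 6.21 FPKM in sham cord, against 3.96 to 4.67 in SCI, and whether the quantification used strand is not given in the sources used here.

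Rac2, the Rac GTPase of blood cells, rose against a background of far more abundant Rac1. Rac2 was at 2.41, 1.32 and 2.00 FPKM in sham cord, against 18.60, 24.21 and 20.17 in SCI libraries, an 11.0-fold rise of the means (1.91 ± 0.551 to 21.0 ± 2.89 FPKM, log2 change 2.93, SE 0.17, limma adjusted p = 2.4e-05). Rac1, the form made by all cells and the one that can serve the oxidase in macrophages, was at 146.41, 145.16 and 145.63 FPKM in sham cord, against 182.13, 162.94 and 178.90 in SCI libraries. Its log2 change of 0.26 (SE 0.07, limma adjusted p = 0.018) passed, but the call ended without any 1 library except SCI replicate 2 (adjusted p = 0.052 to 0.069). Rac3, the neuronal form, was at 17.21 to 27.89 FPKM in sham cord, against 11.32 to 18.90 in SCI libraries. The groups overlapped for Rac3, and its fall of 0.64 (SE 0.22, limma adjusted p = 0.042) did not pass without sham replicate 1 (adjusted p = 0.13), sham replicate 3 (0.11), SCI replicate 1 (0.11) or SCI replicate 2 (0.11). It also missed the threshold without a filter (0.096), without the trend (0.053) and under median-ratio scaling (0.0501). Of the FPKM of the 3 Rac genes, Rac2 held 1.36%, 0.81% and 1.17% in sham and 8.71%, 12.2% and 9.25% in SCI libraries. Rac2 thus went from 1.11% ± 0.283 to 10.1% ± 1.88 (SD, n = 3 per group) of the summed Rac FPKM, with no overlap (two-sided exact permutation p = 0.10, the smallest that 3 against 3 allow).

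The proton channel Hvcn1 was at 1.96, 1.42 and 2.29 FPKM in sham cord, against 8.89, 10.26 and 8.71 in SCI libraries. It rose 4.91-fold, from 1.89 ± 0.439 to 9.29 ± 0.848 FPKM (log2 change 1.84, SE 0.14, limma adjusted p = 8.05e-05), and the 3 SCI libraries lay close together. Hvcn1 shares 4450 bases with Tctn1 on the opposite strand, which was at 8.39 to 10.05 FPKM in sham cord, against 7.06 to 8.09 in SCI libraries. Nox4 remained the lowest of these genes: it was at 0.25, 0.48 and 0.19 FPKM in sham cord, against 1.22, 1.14 and 1.43 in SCI libraries. The rise of Nox4 was 4.12-fold in FPKM, from 0.307 ± 0.153 to 1.26 ± 0.150, and 0.80 on the log2(FPKM + 1) scale (SE 0.17, limma adjusted p = 0.0053). Unlike the other 6 genes it was highest in SCI replicate 3 and lowest, among the injured libraries, in SCI replicate 2.

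**Figure D1:**
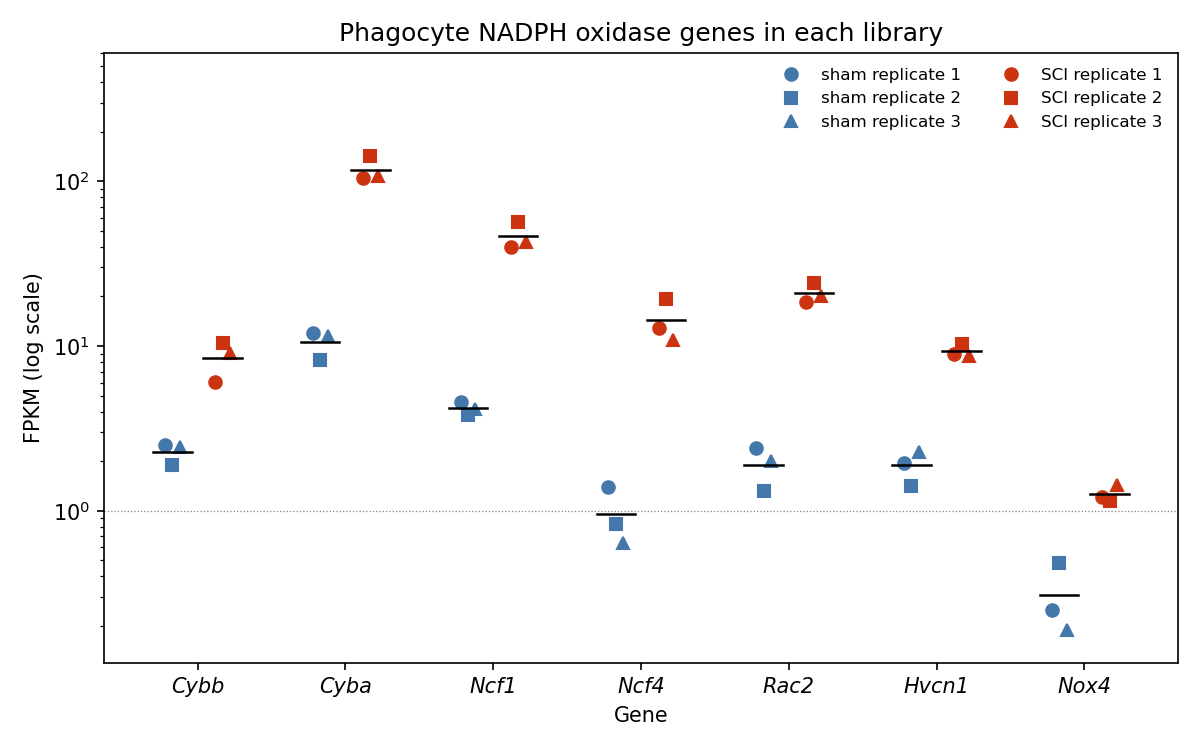
FPKM on a log scale of the 7 genes in each library (points, 1 shape per replicate number) with the group mean (bar), and a dotted line at 1 FPKM. Every SCI point lies above every sham point of the same gene, and Cyba and Ncf1 are the highest in both groups.

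All 7 genes were past the threshold, 7 higher and 0 lower, where 57.5% of the genes tested were past it, 26.7% higher and 30.8% lower. The groups did not overlap for any of the 7, with SCI higher each time. Among the genes tested 67.6% did not overlap, 30.7% with SCI higher and 36.9% with SCI lower. Nox4 had to differ to be tested at all, because no sham library reached 1 FPKM, and Ncf4 reached 1 FPKM in 1 sham library only. The other 5 reached it in all 6 libraries. Set among all tested genes by log2 change, 0.66% rose more than Cyba, 0.79% more than Ncf1, 1.11% more than Ncf4 and 1.18% more than Rac2. The shares were 4.10% for Hvcn1, 6.03% for Cybb and 14.3% for Nox4. The median change of the tested genes was -0.076. The 7 genes were past the threshold without SCI replicate 2, the library with the most haemoglobin, and without SCI replicate 3, the library with ganglion genes.

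Cybb took a lower place among these genes after injury. In sham cord Cyba was highest, then Ncf1, then Cybb at 2.29 FPKM, and the ranges of Cybb, Rac2 and Hvcn1 overlapped from each to the next, so that their order is not resolved. Ncf4 came next, its highest sham value of 1.40 FPKM just under the lowest of Hvcn1 (1.42), and Nox4 was last. In injured cord Cyba (118 FPKM) and Ncf1 (46.4) again led without overlap. Rac2 (21.0) and Ncf4 (14.3) came next with overlapping ranges, then Hvcn1 (9.29) and Cybb (8.51), whose ranges also overlapped. Every injured library had less Cybb than the lowest value of Rac2 or Ncf4, while in sham cord these genes were no higher than Cybb on average.

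Within a library, the levels of Cyba, Ncf1, Ncf4, Rac2 and Hvcn1 relative to Cybb were higher after injury, with no overlap in FPKM. The ratio of Cyba to Cybb FPKM was 4.77, 4.32 and 4.73 in sham and 17.1, 13.7 and 11.9 in SCI libraries. For Ncf1 it was 1.83, 2.01 and 1.70 in sham and 6.57, 5.44 and 4.72 in SCI libraries, and for Rac2 it was 0.956, 0.691 and 0.820 against 3.06, 2.33 and 2.23. These ratios did not overlap between the groups, and SCI replicate 1, where Cybb was lowest, had the highest ratio of the injured libraries each time. On the log2(FPKM + 1) scale the difference from Cybb grew by 1.85 for Cyba, 1.67 for Ncf1, 1.44 for Ncf4 and 1.42 for Rac2. The difference was smaller for Hvcn1 (0.33), and its ratio nearly met between the groups, at 0.743 to 0.939 in sham and 0.965 to 1.46 in SCI libraries. Without SCI replicate 1 the Hvcn1 difference was 0.16. The ratio of Nox4 to Cybb overlapped, at 0.0779 to 0.251 in sham and 0.110 to 0.201 in SCI libraries, and its difference of -0.71 on the log2(FPKM + 1) scale was -0.020 with a pseudocount of 0.1. Against Ptprc, which encodes the leukocyte antigen CD45, the FPKM ratio of Cybb was 2.47, 2.65 and 3.25 in sham and 1.23, 1.11 and 1.45 in SCI libraries, lower without overlap. That of Cyba to Ptprc overlapped, with means of 12.9 ± 2.18 and 17.8 ± 3.03 (SD, n = 3 per group). Rac2 relative to Rac1 grew by 2.67 on the log2(FPKM + 1) scale. Of the 10 ratios compared on that scale, each had a two-sided exact permutation p of 0.10 and an adjusted p of 0.10, the smallest possible with 3 libraries against 3, so that no ratio could pass 0.05.

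**Figure D2:**
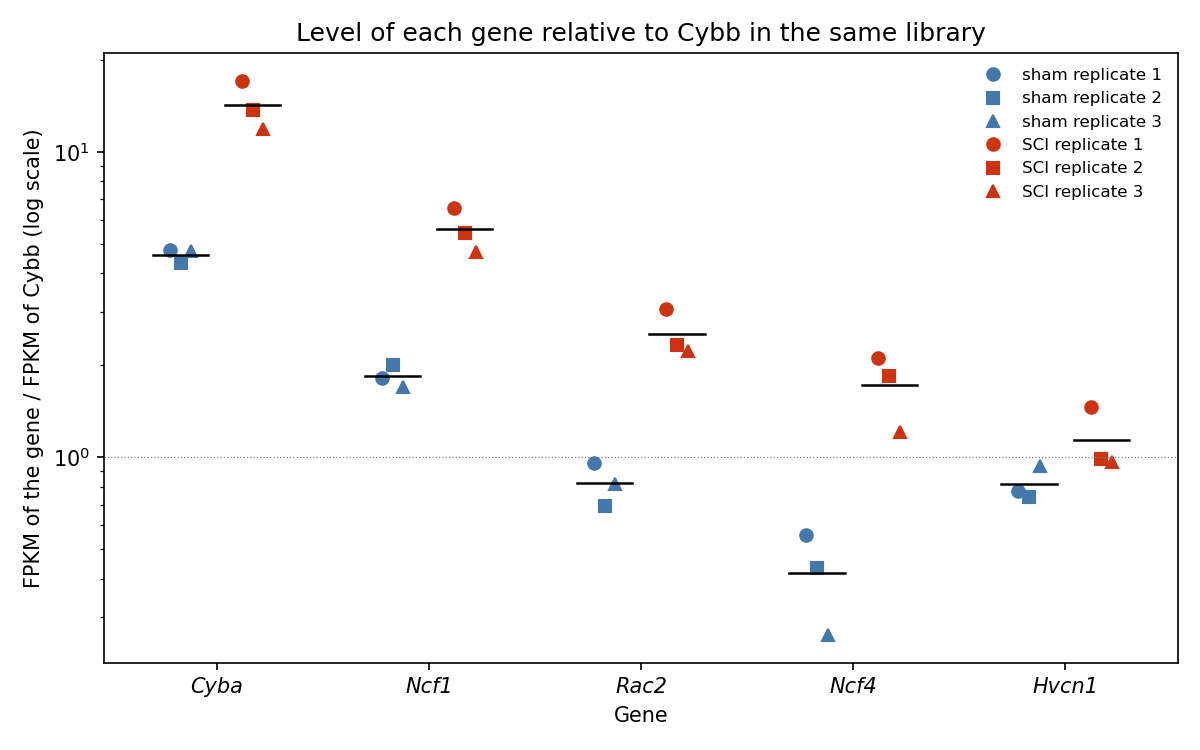
FPKM of each gene divided by the FPKM of Cybb in the same library, on a log scale, with the group mean as a bar and a dotted line at equality. The ratio of Cyba rises from between 4.32 and 4.77 in sham to between 11.9 and 17.1 in SCI libraries, while that of Hvcn1 goes from at most 0.939 to at least 0.965.

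Genes of white blood cells rose in the same libraries, and their values are set beside those of the oxidase. The summed FPKM of 5 leukocyte genes (Ptprc, Laptm5, Coro1a, Cd52 and Cd53, with 5 of 5 higher) was 46.4 to 57.2 in sham cord and 251 to 353 after injury. Of 8 microglial genes 7 were higher, and their sum was 196 to 214 in sham cord and 639.5 to 802 after injury. The 8 genes of monocyte-derived macrophages had sums of 118 to 162 in sham cord and 1066 to 1833 after injury. All 8 were called higher, but 6 of them could be tested only through the SCI libraries. For these 6 the filter fixed the direction of any call and the lack of overlap between the groups, though not the adjusted p. The sum of 11 neutrophil genes was 22.1 to 52.1 in sham cord and 306, 729 and 160 in SCI replicates 1, 2 and 3, with Ly6g under 1 FPKM in every library. The 9 neutrophil genes tested were higher, 2 of them tested only through the SCI libraries. The 6 T and NK cell genes were under 1 FPKM in every library, as were Ms4a1 and Pax5 among 5 B cell genes, whose sum was 1.11 to 2.12 in sham cord and 1.83 to 5.94 after injury. The leukocyte, microglial, macrophage, neutrophil and B cell sums, like 6 of the 7 oxidase genes, were highest in SCI replicate 2. In fold of the means the microglial sum (3.65) was close to Cybb (3.71), the leukocyte sum (5.74) lay between Hvcn1 (4.91) and Rac2 (11.0), and the macrophage sum (10.0) and neutrophil sum (11.9) lay on either side of Rac2, Ncf1 and Cyba (11.0, 11.1 and 11.1). Without SCI replicate 2 the neutrophil sum was 6.95-fold and the macrophage sum 8.76-fold higher, both below Ncf1 (9.84), Cyba (9.95) and Rac2 (10.1), while the microglial sum (3.51) and Cybb (3.30) remained close. How much of the rise of the oxidase genes went with the number of these cells was not tested.

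**Figure D3:**
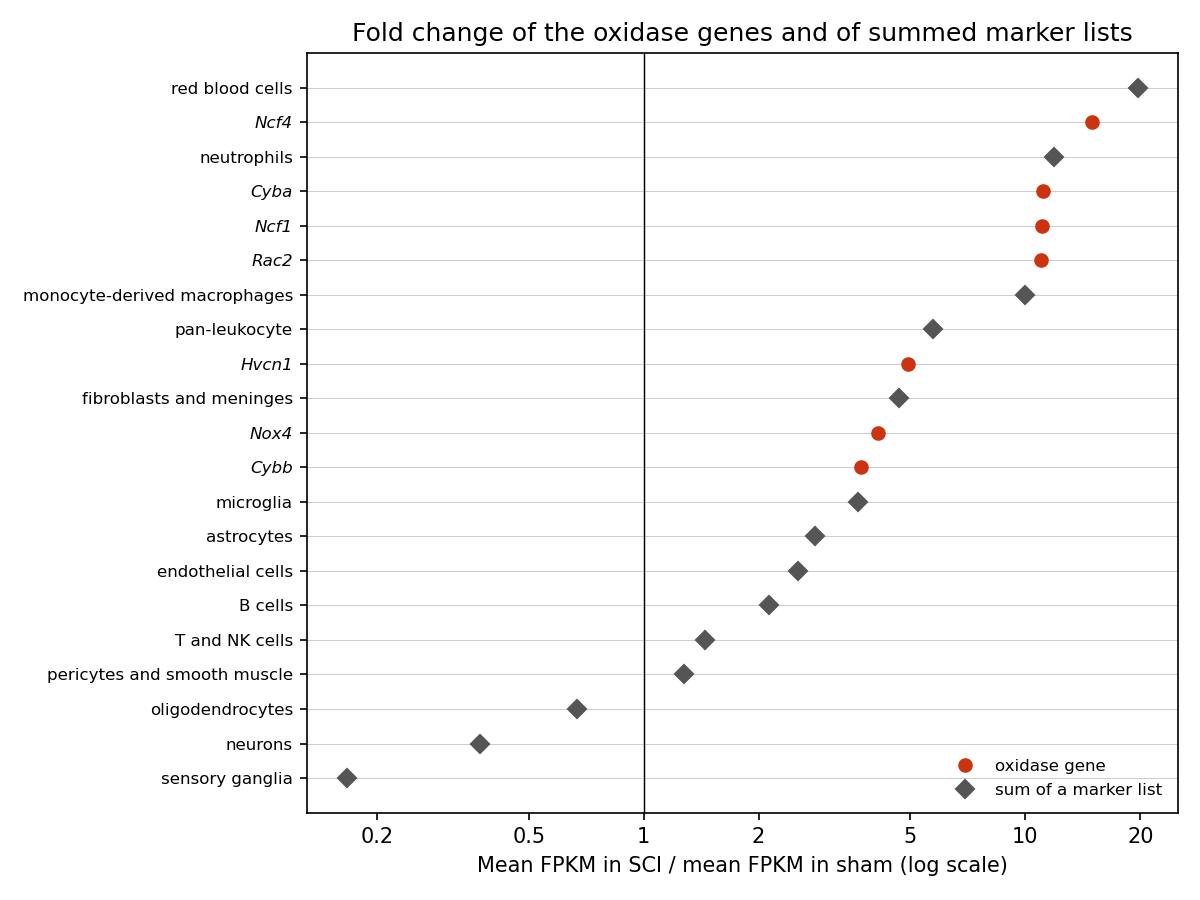
Mean FPKM in SCI divided by mean FPKM in sham, on a log scale, for each oxidase gene (circles) and for the summed FPKM of each cell type marker list (diamonds). Cybb (3.71) lies next to the microglial sum (3.65), and Rac2, Ncf1 and Cyba (11.0 to 11.1) lie between the macrophage (10.0) and neutrophil (11.9) sums, but without SCI replicate 2 the neutrophil, red blood cell and B cell folds were 6.95, 3.60 and 1.33.

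Set against the summed leukocyte genes of the same library, the subunits divided into groups, but this division depends on the genes summed. In fold of the means Coro1a rose 2.64-fold, Laptm5 5.26-fold, Ptprc 8.26-fold, Cd53 11.1-fold and Cd52 14.0-fold. The last 2 thus rose about as much as Cyba or more. Per 100 FPKM of the leukocyte sum, Cyba stood at 17.8 to 23.4 FPKM in sham cord, against 39.0 to 41.4 in SCI libraries, and Ncf1 at 8.04 to 8.44 and 15.5 to 16.1. Ncf4 and Rac2 were also higher against this sum in every SCI library. Cybb was lower on this measure, at 4.41, 4.12 and 4.95 FPKM in sham cord, against 2.42, 2.95 and 3.29 in SCI libraries. Hvcn1 and Nox4 overlapped between the groups. Per 100 FPKM of the microglial sum Cybb overlapped too, with 0.945 to 1.29 in sham and 0.951 to 1.3 in SCI libraries, while Cyba stood at 4.08 to 6.14 in sham cord and 13.5 to 17.8 after injury. Per 100 FPKM of the macrophage sum, most of which was the lysozyme gene Lyz2, the groups overlapped for Cyba, Ncf1, Ncf4 and Rac2, and Cybb was at 1.51 to 1.62 in sham and 0.568 to 0.599 in SCI libraries. These quotients were chosen after the values were seen and carry no test.

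Markers of vessel and connective tissue cells are given beside Nox4, which is known from such cells. The sum of 6 endothelial genes was 96.3 to 106 in sham cord and 236 to 277 after injury (6 of 6 higher). That of 6 fibroblast and meningeal genes was 52.3 to 116 and then 312 to 621 (6 of 6 higher). Of 6 pericyte and smooth muscle genes, 3 were higher and 1 lower, with a sum of 106 to 113 in sham and 133, 141 and 149 in SCI replicates 1, 2 and 3. Nox4 was highest in SCI replicate 3, as was the pericyte sum, while the endothelial sum was highest in SCI replicate 1 and the fibroblast sum in SCI replicate 2. The place of SCI replicate 3 in the pericyte sum rested on Rgs5, its most abundant gene. Rgs5 was at 63.60, 63.53 and 81.00 FPKM in SCI replicates 1, 2 and 3, and its change of -0.04 did not pass (limma adjusted p = 0.80). SCI replicate 3 is also the library with the ganglion genes, and without it the log2 change of Nox4 was 0.74 (limma adjusted p = 0.019). What these cells contributed to the rise of Nox4 was not tested.

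Among the close partners of the oxidase, 2 of 5 rose, 1 fell and 2 did not pass. The counts of this and the other gene lists are to be read beside the shares of all genes tested, 26.7% higher and 30.8% lower. Rac1 and Rac3 are given above. Rap1a, the GTPase found bound to the membrane core, was at 77.60, 86.92 and 85.49 FPKM in sham cord, against 96.14, 85.63 and 95.97 in SCI libraries (log2 change 0.15, limma adjusted p = 0.16). It passed without SCI replicate 2 (0.20, adjusted p = 0.036), under median-ratio scaling (0.24, adjusted p = 0.023) and with array weights (0.19, adjusted p = 0.025). Cybc1, the chaperone that the membrane core needs to mature, was at 16.96, 21.14 and 19.22 FPKM in sham cord, against 18.74, 18.20 and 18.21 in SCI libraries. Its log2 change of -0.05 (SE 0.09, limma adjusted p = 0.69) did not pass and turned to 0.04 under median-ratio scaling and 0.02 without sham replicate 2.

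The other NADPH oxidases stayed at or near the bottom of the scale. Nox1, Noxa1, Duox1, Duox2, Duoxa1 and Duoxa2 were under 1 FPKM in all 6 libraries, Duoxa2 being listed at 0 throughout, and Nox3 was not analysed here. Noxo1, the organiser that serves Nox1, was at 0.69 to 1.02 FPKM in sham cord, against 0.31 to 0.73 in SCI libraries. Of these genes only Poldip2, a protein reported to bind p22phox and raise Nox4 activity, could be tested. It was at 50.85, 54.35 and 51.69 FPKM in sham cord, against 47.48, 40.74 and 48.38 in SCI libraries, and its change of -0.20 (SE 0.09, limma adjusted p = 0.086) did not pass.

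The list of receptors that prime or trigger the oxidase also held Fcgr2b, which is inhibitory. Members of the list rose in 15 of 15 cases, with a median log2 change of 3.14. Of these, 2 (C5ar1 and Tlr4) were tested only through the SCI libraries, so that the filter fixed the direction of their calls. C5ar1, the receptor of the chemoattractant C5a, was at 0.84, 0.54 and 0.98 FPKM in sham cord, against 20.58, 32.13 and 23.20 in SCI libraries (log2 change 3.86, SE 0.18). Fcer1g, the signalling chain of Fc receptors, went from 12.2 ± 0.943 to 148 ± 17.4 FPKM (3.49, SE 0.10), and Fcgr2b, the inhibitory Fc receptor, from 1.67 ± 0.445 to 29.0 ± 6.35 (3.48, SE 0.18). The highest limma adjusted p among these 3 was 1.8e-05. The formyl peptide receptors, which trigger the oxidase of neutrophils, changed least in this list, with log2 changes of 1.19 for Fpr1 and 1.50 for Fpr2. SCI replicate 2 had the highest level of 13 of the 15 receptors.

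Kinases and lipid enzymes that act between these receptors and the oxidase had 12 of 15 members higher and 2 lower, with a median of 1.33. Of the 12, Pik3cg was tested only through the SCI libraries. The Src-family kinases of myeloid cells led: Lyn went from 3.89 ± 0.373 to 31.4 ± 7.36 FPKM (log2 change 2.71, SE 0.16) and Fgr from 0.800 ± 0.191 to 8.81 ± 0.762 (2.45, SE 0.13). The higher limma adjusted p of the pair was 2.7e-05. The protein kinase C forms that phosphorylate p47phox went apart, Prkcd up by 1.14 and Prkcb, which neurons also make, down (-0.75). Pak1, the p21-activated kinase abundant in neurons, fell from 210 ± 7.50 to 101 ± 24.8 FPKM (-1.08, SE 0.18, limma adjusted p = 0.0019), while Pak2, its widely expressed relative, rose by 0.79. The summed FPKM of 6 neuronal genes was at least 2171 in sham and at most 1045 in SCI libraries, and its part in the falls of Pak1 and Prkcb was not tested.

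Regulators of Rac had 5 of 9 members higher and 2 lower. The blood cell forms rose most: Arhgdib, the dissociation inhibitor of leukocytes, went from 8.11 ± 1.06 to 75.1 ± 14.9 FPKM (log2 change 3.05, SE 0.15), Vav1 from 2.07 ± 0.203 to 23.1 ± 3.66 (2.97, SE 0.13) and Dock2 from 1.09 ± 0.0929 to 10.1 ± 2.33 (2.39, SE 0.16). The highest limma adjusted p of these was 4.8e-05. Their relatives made by many cells moved less: Vav2 (-0.01) and Vav3 (0.13) did not pass, and Arhgdia, the most abundant of the list, rose from 216 ± 9.07 to 457 ± 26.2 FPKM (1.08, SE 0.08, limma adjusted p = 6.6e-05). Tiam1 (-0.37) and Elmo1 (-0.58) were lower. Differences between these relatives were not tested.

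Of 9 tested transcription factors of myeloid cells 8 were higher, with a median of 2.06. Runx1, 1 of the 8, was tested only through the SCI libraries. Spi1, which encodes PU.1, was at 2.46, 2.37 and 2.49 FPKM in sham cord, against 17.25, 24.02 and 20.76 in SCI libraries, an 8.47-fold rise (log2 change 2.64, SE 0.13, limma adjusted p = 1.4e-05). Irf8, the partner of PU.1 in the monocyte lineage, went from 1.34 ± 0.262 to 10.0 ± 1.22 FPKM (2.24, SE 0.13) and Cebpb from 1.35 ± 0.779 to 13.4 ± 5.21 (2.59, SE 0.33). Rela, the NF-kappaB subunit, was the most abundant of the list and rose by 0.78 (limma adjusted p = 0.0015). Cebpe, a factor of granulocyte precursors, was under 1 FPKM in every library.

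The list of enzymes around the supply of NADPH, the fuel of the oxidase, had 6 of 7 members higher and 0 lower. The amounts were smaller (median 0.61). The list also held Taldo1 and Tkt, enzymes of the pentose phosphate pathway that do not make NADPH themselves. H6pd, the hexose-6-phosphate dehydrogenase of the endoplasmic reticulum, was at 3.61 to 5.54 FPKM in sham cord, against 18.09, 37.21 and 14.42 in SCI libraries (log2 change 1.96, SE 0.33, limma adjusted p = 0.0020). Pgd and G6pdx, the NADPH-making steps of the pentose phosphate pathway, went from 14.8 ± 1.01 to 42.1 ± 4.21 FPKM (1.45, SE 0.10) and from 42.9 ± 2.53 to 74.2 ± 1.97 (0.78, SE 0.07). Taldo1, the transaldolase, was the most abundant and rose by 0.61, and Tkt, the transketolase, had a change of 0.12 that did not pass.

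Enzymes that take up the products of the oxidase went both ways, with 5 of 8 tested higher and 2 lower. Gpx1, a peroxidase that uses glutathione, went from 76.6 ± 4.71 to 309 ± 43.6 FPKM (log2 change 1.99, SE 0.12), Prdx6 from 115 ± 5.41 to 287 ± 35.0 (1.3, SE 0.10) and Prdx1 from 128 ± 4.23 to 277 ± 21.3 (1.11, SE 0.08). The superoxide dismutases divided: Sod3, the secreted form, rose by 0.78, Sod2, the mitochondrial form, fell (-0.78), and Sod1, the cytosolic form, had a change of -0.25 that did not pass. Catalase (Cat) fell, with a change of -0.38. Mpo, the myeloperoxidase of neutrophil granules, stayed under the filter, with 0.07 to 0.33 FPKM in sham cord, against 1.07, 2.67 and 0.42 in SCI libraries. Other channels and exchangers that move charge or protons had 2 of 5 higher and 2 lower, where 26.7% and 30.8% of all genes tested were. Kcnn4, a calcium-gated potassium channel of blood cells, rose by 1.31 and was tested only through the SCI libraries, since no sham library reached 1 FPKM. The rise of Kcna3 (0.48, limma adjusted p = 0.031) did not pass without SCI replicate 2 or any 1 sham library (adjusted p = 0.063 to 0.084) or in 3 other settings, while Clcn3 (-0.41) fell.

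**Figure D4:**
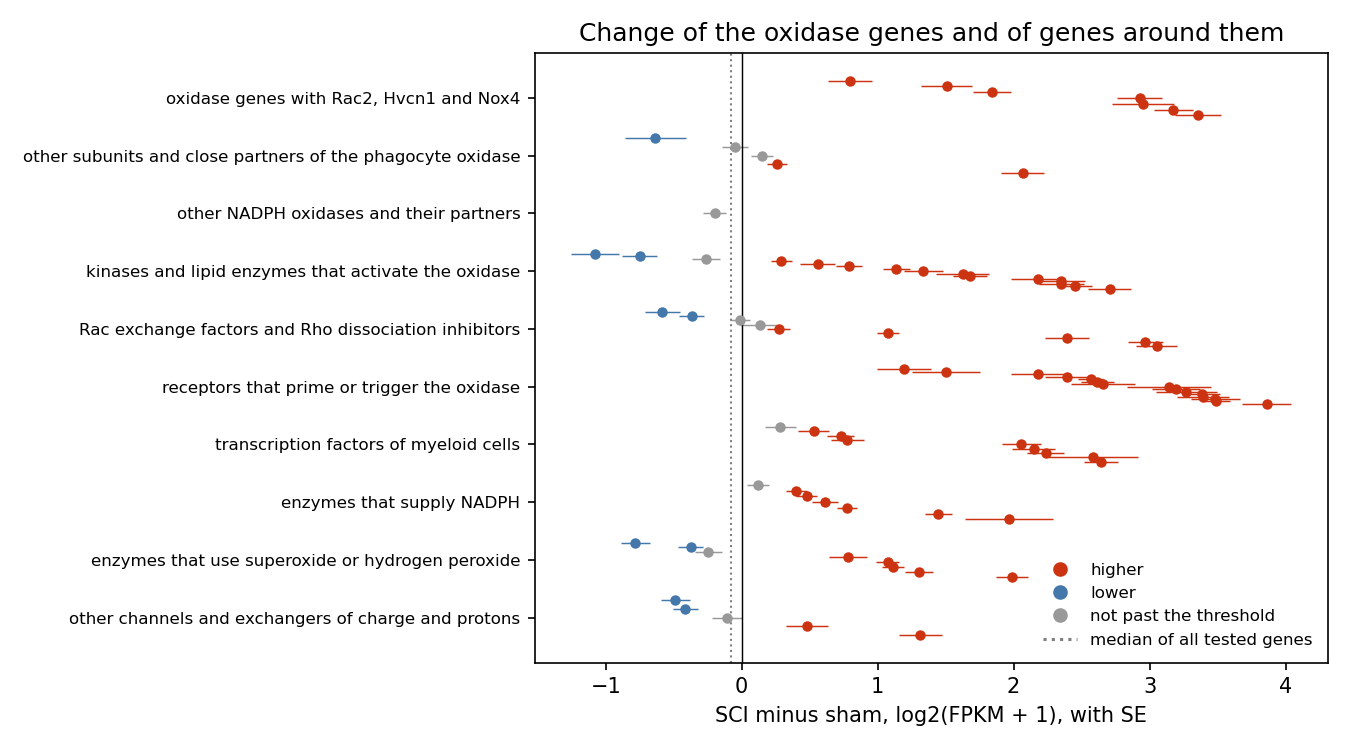
Change of each tested gene, in log2(FPKM + 1) with its SE (positive where SCI was higher), for the 7 oxidase genes and for 9 lists of genes around the oxidase. Receptors lie between 1.19 and 3.86, while the lists of close partners, other oxidases and other channels lie mostly near the dotted line at the median of all tested genes.

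Genes with the pattern most like those of Cybb and Nox4 were sought over the 6 libraries by the root mean square difference of log2(FPKM + 1) after each gene was centred on its own mean. Among genes with a mean of at least 5 FPKM the nearest to Cybb were Mmp2, a metalloproteinase of stromal cells (0.10), Adap2 and Loxl3 (both 0.107), Slc7a8, an amino acid transporter (0.112), and Hexa, a lysosomal hexosaminidase (0.122). Mmp2 was at 5.81, 4.10 and 6.14 FPKM in sham cord, against 11.06, 18.78 and 17.46 in SCI libraries, with the same lowest and highest injured library as Cybb. The nearest to Nox4 were Gm10182 (0.063), Cenpx (0.068), Gm7206 (0.079), Srxn1, the sulfiredoxin that repairs oxidised peroxiredoxins (0.089), and Ifi27 (0.090). Srxn1 was at 95.46, 95.93 and 91.57 FPKM in sham cord, against 172.47, 154.81 and 183.20 in SCI libraries, lowest of the injured libraries in replicate 2, as Nox4 was. The pattern of 6 libraries is mostly the difference between the groups. A small distance therefore says that the change is alike in size on the log2(FPKM + 1) scale only. In fold of the group means the genes nearest to Nox4 rose 1.74- to 1.88-fold, against 4.12-fold for Nox4 itself. That scale understates the change of a gene as low as Nox4. Those nearest to Cybb rose 2.75- to 3.51-fold, against 3.71-fold for Cybb.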

How the data were processed

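RNA-seq libraries of spinal cord, 3 sham and 3 SCI, were analysed from the FPKM per gene that the authors deposited, a unit named per the file headers. The libraries were poly(A)-selected, stranded by dUTP and built with UMI adapters, per the labels' protocols. Tools listed without roles in the submitters' processing notes were StringTie 1.3.4d, HISAT2 2.0.4, cutadapt 1.9, edgeR, DESeq2 and UMI-tools, with mm9 as the build. GRCm38 is nevertheless the build of the deposited coordinates, since 91.7% of the 36502 identifiers also in GENCODE M21 matched it in position. No step of whole reads was found among low values (at most 3.44% of genes in a bin of 0.05 log2 units), so depth is unknown and no interval for counting error can be given.

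limma 3.58.1 in R 4.3.3 was run on log2(FPKM + 1) with group as the only term and a trend of variance with level, over the 17435 genes that reached 1 FPKM in 3 or more of 6 libraries. On simulated data with 17435 genes, 28%, 58%, 94% and 100% of genes changed by 0.5, 1, 2 and 4 log2 units were recovered. Ratios were compared by exact permutation. Named were the 7 genes, the 5 close partners, from each other list of pathway genes the 3 with the largest change past the threshold and the most abundant, and the 5 genes nearest in pattern to Cybb and to Nox4: 49 genes, 12 of which overlap another gene of at least 1 FPKM. Some genes counted in the lists are not reported here by name. Further list members were named after their values were seen. The 7 genes, the 9 pathway lists and the 14 marker lists were chosen with earlier results of these data known. Alternatives were other pseudocounts, filters, scalings and variance models, a replicate block, and leaving out each library. Folds of group means without 1 SCI library were added after the data were seen.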

Additional observations from a re-analysis of the deposited data

How the results depend on the processing

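The 7 oxidase genes were called higher in every alternative, except that Nox4 was not tested, leaving 6, with a mean of at least 5 FPKM required. Their log2 changes ranged from 1.25 to 1.82 for Cybb, 3.20 to 3.47 for Cyba, 3.03 to 3.42 for Ncf1, 2.73 to 3.79 for Ncf4, 2.77 to 3.42 for Rac2, 1.72 to 2.26 for Hvcn1 and 0.61 to 1.80 for Nox4, the upper ends at a pseudocount of 0.1. The highest limma adjusted p was 0.021, for Nox4 without sham replicate 3. Over all genes 3498 to 5371 were higher and 4136 to 6364 lower. The replicate block left 7 oxidase genes higher, and 4398 genes higher and 5045 lower in all. Deviations of libraries with the same number correlated at -0.0076, -0.039 and 0.022, and those with different numbers at -0.035 to 0.038. Whether the numbers pair the samples cannot be settled this way, because each deviation is from a mean of only 3 libraries. Of 49 named genes 43 kept their direction and call in each alternative that tested them, which was 16 for 45 genes and 15 for 4. Cybc1 reversed to 0.040 under median-ratio scaling, and leaving out 1 library gave -0.13 to 0.024. Counts of the lists, run after the data were seen, moved by more than 1.5 times in 3 lists. Close partners had 0 lower with no filter, under median-ratio scaling and without the trend, and 1 to 3 higher and 0 to 1 lower with 1 library left out. Channels and exchangers had 1 higher with no filter, under quantile normalization or with the replicate block, 0 at a mean of 5 FPKM, where fewer genes were tested, and 1 to 2 with 1 library left out. Poldip2 gave 1 lower oxidase partner after rescaling without mitochondrial and haemoglobin genes. The cause was not tested. The 10 ratios kept their sign with other pseudocounts and with each library left out. Low FPKM, as for Nox4 and Ncf4 in sham, limit the precision of their folds.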

Other observations

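Ncf4 and Rac2 lie on the same chromosome, and the 296586 bases between them hold 16 genes of the files, 8 of which were tested. Of these 3 were higher and 3 lower, a share of higher genes to be read beside the 26.7% of all genes tested. Csf2rb, the shared beta chain of the receptors for GM-CSF, IL-3 and IL-5, was at 1.12, 0.79 and 0.94 FPKM in sham cord, against 8.88, 17.12 and 9.32 in SCI libraries (log2 change 2.66). Csf2rb2, its close copy in mice, was at 0.95, 0.69 and 1.04 FPKM in sham cord, against 10.49, 17.23 and 9.48 in SCI libraries (2.78), and reads may be shared between the copies. C1qtnf6 rose from 2.06 ± 0.930 to 12.1 ± 0.907 FPKM (2.13). The 3 that fell were Sstr3 (-0.75), Tst (-0.39) and Kctd17 (-0.28), so the stretch did not move as a block. The stretch was chosen after the positions of Ncf4 and Rac2 were seen.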
